A study of Mus musculus with 48 samples.

Results

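C4b and the copies of the chromosome segment around it were followed in mouse cortex by RNA sequencing. The 8 genes were taken by their symbols from the deposited tables of FPKM (fragments scaled to exon length and to the mapped reads of the library): C4b and C4a, the pseudogenes Stk19-ps1, Skiv2l-ps1 and Tnxa, and the genes Stk19, Skiv2l and Tnxb from which those pseudogenes are copied. All 8 were among the 54100 genes of the table for P1, P7, P14 and P45 and the 55401 genes of the P21 table, 7 were among 48785 genes of the table for VPA and CT, and 4 were among 16291 genes of the table for samples titled NPC. The tables were read separately, since they were scaled separately. In the age table, mG-cKO and Ctrl cortex had 3 libraries each at P1, 2 each at P7, 2 each at P14 and 3 each at P45. At P21, mG-cKO-RTI, mG-cKO, mG-cKD-RTI, mG-cKD and Ctrl cortex had 3 libraries each, and the titles call mG-cKO MT, mG-cKD Het and Ctrl WT. At P1, VPA and CT cortex had 3 libraries each. The 3 NPC libraries have the same tissue, genotype and age labels as Ctrl cortex at P1, and no comparison was made with them. The labels name neither the altered gene nor the promoter or cell type in which it was altered, so the alteration itself could not be checked here. The meanings of mG, RTI, VPA and NPC are not in the labels either.

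Complement C4 is a plasma and tissue protein that is cleaved when the classical or lectin pathway is triggered, and its fragment binds covalently to nearby surfaces, where receptors on phagocytes recognise it. In the brain C4 is known for tagging synapses that microglia remove, and the title of the series ties a rise of C4b to RNA-DNA hybrids derived from endogenous retroviruses. In mice the C4 region of the major histocompatibility complex was duplicated as a block, so that C4b and C4a lie in tandem, each beside copies of a 21-hydroxylase gene, a tenascin gene, Stk19 and Skiv2l. C4a encodes the sex-limited protein, which is known in the liver for its androgen control through an old provirus upstream. Stk19 encodes a nuclear protein of the class III region, Skiv2l an RNA helicase of the complex that feeds the cytoplasmic exosome, and Tnxb tenascin-X of the extracellular matrix.

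On chromosome 17 of GRCm38/mm10, with GENCODE M21 annotation, C4b (ENSMUSG00000073418) spans 34728380 to 34743882 on the minus strand. Stk19-ps1 (34744753 to 34747154, minus strand) ends 0.87 kb upstream of the start of C4b. Skiv2l-ps1 (34769833 to 34771228, minus strand) and Tnxa (34771395 to 34801623, plus strand) lie farther upstream, with their near ends 26.0 and 27.5 kb from the C4b start. C4a (34809092 to 34823464, minus strand) follows with its near end at 65.2 kb, then Stk19 (34823993 to 34836945) and Skiv2l (34839228 to 34850210), both on the minus strand. Tnxb (34670535 to 34719815, plus strand) lies on the other side, downstream of C4b. All 3 pseudogenes thus lie in the duplicated block between C4b and C4a. GENCODE classes all 3 as unprocessed pseudogenes, C4b, Stk19, Skiv2l and Tnxb as protein coding, and C4a as a processed transcript.

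The copies are close enough in sequence for this to bear on every value that follows. Spliced C4b and C4a matched at 95.9% of 5378 aligned positions, Stk19-ps1 and Stk19 at 95.1% of 528, and Skiv2l-ps1 and Skiv2l at 93.3% of 669. Tnxa matched Tnxb at 91.1% over 6 aligned stretches, and at 97.6% over the longest of them. Of all 100-base stretches of C4b exons, 15.2% also occurred in C4a, as did 12.4% of those of Tnxa in Tnxb, 9.81% of those of Stk19-ps1 in Stk19 and 0% of those of Skiv2l-ps1 in Skiv2l. At 50 bases the shares were 34.6% for C4b, 25.9% for Tnxa, 27.6% for Stk19-ps1 and 4.43% for Skiv2l-ps1. Read length and the treatment of reads that fit several places are not given in the sources used here, so levels of a copy and its partner are uncertain to the extent of such stretches. The sequences below are 90-base windows from GENCODE M21 transcripts that show where reads can be told apart. Capitals mark the bases where the 2 copies differ. For each pair the window has the most differences among gap-free windows inside a single exon that begin and end in coding sequence. Only the highest-scoring aligned stretch of each pair was searched, so other stretches may differ more. The tenascin window thus comes from the stretch that matched at 97.6%. They lie in exon 21 of 41 of both C4 transcripts, in exon 2 of 5 of Stk19-ps1 against exon 4 of 7 of Stk19, in exon 2 of 5 of Skiv2l-ps1 against exon 14 of 28 of Skiv2l, and in exon 17 of 18 of Tnxa against exon 40 of 41 of Tnxb.
C4b (chr17:34735430-34735519, minus strand): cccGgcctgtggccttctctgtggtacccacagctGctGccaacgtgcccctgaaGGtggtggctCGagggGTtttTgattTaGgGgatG
C4a (chr17:34816086-34816175, minus strand): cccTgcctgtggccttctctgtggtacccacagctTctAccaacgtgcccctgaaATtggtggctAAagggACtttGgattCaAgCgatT
Stk19-ps1 (chr17:34746666-34746755, minus strand): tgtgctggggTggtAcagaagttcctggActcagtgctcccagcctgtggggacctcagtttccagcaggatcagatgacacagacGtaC
Stk19 (chr17:34832036-34832125, minus strand): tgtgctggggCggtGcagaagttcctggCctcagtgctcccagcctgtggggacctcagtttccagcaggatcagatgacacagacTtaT
Skiv2l-ps1 (chr17:34770646-34770735, minus strand): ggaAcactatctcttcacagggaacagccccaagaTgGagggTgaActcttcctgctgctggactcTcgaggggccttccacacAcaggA
Skiv2l (chr17:34845168-34845257, minus strand): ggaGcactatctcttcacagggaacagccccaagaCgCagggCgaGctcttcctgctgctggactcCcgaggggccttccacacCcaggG
Tnxa (chr17:34801058-34801147, plus strand): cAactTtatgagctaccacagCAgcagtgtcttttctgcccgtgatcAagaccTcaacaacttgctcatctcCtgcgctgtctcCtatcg
Tnxb (chr17:34719062-34719151, plus strand): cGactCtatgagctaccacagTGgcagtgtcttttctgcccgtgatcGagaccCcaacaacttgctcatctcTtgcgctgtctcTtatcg
The C4 pair differs at 14 of 90 positions in its window, the Stk19 pair at 5, the Skiv2l pair at 8 and the tenascin pair at 8.

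The libraries differ in kind. In 23 of 44 libraries FPKM times exon length gave whole numbers of reads within 0.05 reads for nearly all low values, which gave a depth of 13.5 to 30.9 M reads. The other 21 did not, and their depth is unknown: these are NPC C3, VPA 3, replicate 3 of either genotype at P45 and at P1, and the whole P21 table. At P45 Stk19 stood at 22.6 and 21.1 FPKM in replicate 3 of mG-cKO and Ctrl, against 6.59 to 8.22 FPKM in the other 4 libraries, so results at P1 and P45 are also given within each kind. Those 4 whole-read P45 libraries also stood apart in the age table, with 19052 to 19137 genes at 1 FPKM or more, against 14088 to 14501 in its 16 other libraries. The P45 levels, the P45 differences and the effects at P45 minus P1 rest in part on them, and the replicate 3 values at P45 are those without them. Nothing in the labels says which replicates came from separate animals, and the spread behind each p-value may therefore be technical. In whole cortex, fewer cells of a type and less RNA per cell cannot be told apart.

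C4b exceeded its Ctrl level in mG-cKO cortex at each age. The excess was 2.76-fold at P1, 6.47-fold at P7, 8.48-fold at P14, 8.89-fold at P45 and 12.1-fold in the separate P21 table. The P1 difference did not pass in the fit given below. At P1 C4b stood at 1.27, 1.35 and 1.17 FPKM in mG-cKO, against 0.393, 0.426 and 0.556 FPKM in Ctrl. It stood at 8.21 and 10.5 FPKM in mG-cKO and 1.47 and 1.43 FPKM in Ctrl at P7, and at 12.7 and 17.2 FPKM in mG-cKO and 1.62 and 1.91 FPKM in Ctrl at P14. At P45 the values were 21.6, 19.8 and 30.7 FPKM in mG-cKO and 2.69, 2.38 and 3.03 FPKM in Ctrl. At every age each mG-cKO library lay above each Ctrl library. The levels in the age table ran from 24.0 ± 5.82 FPKM in mG-cKO at P45 (SD, n = 3) through mG-cKO at P14, mG-cKO at P7, Ctrl at P45, Ctrl at P14, Ctrl at P7 and mG-cKO at P1 down to 0.458 ± 0.086 FPKM in Ctrl at P1 (SD, n = 3). No neighbours in that order overlapped, and every mG-cKO library at P1 lay below every Ctrl library at P7.

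**Figure D1:**
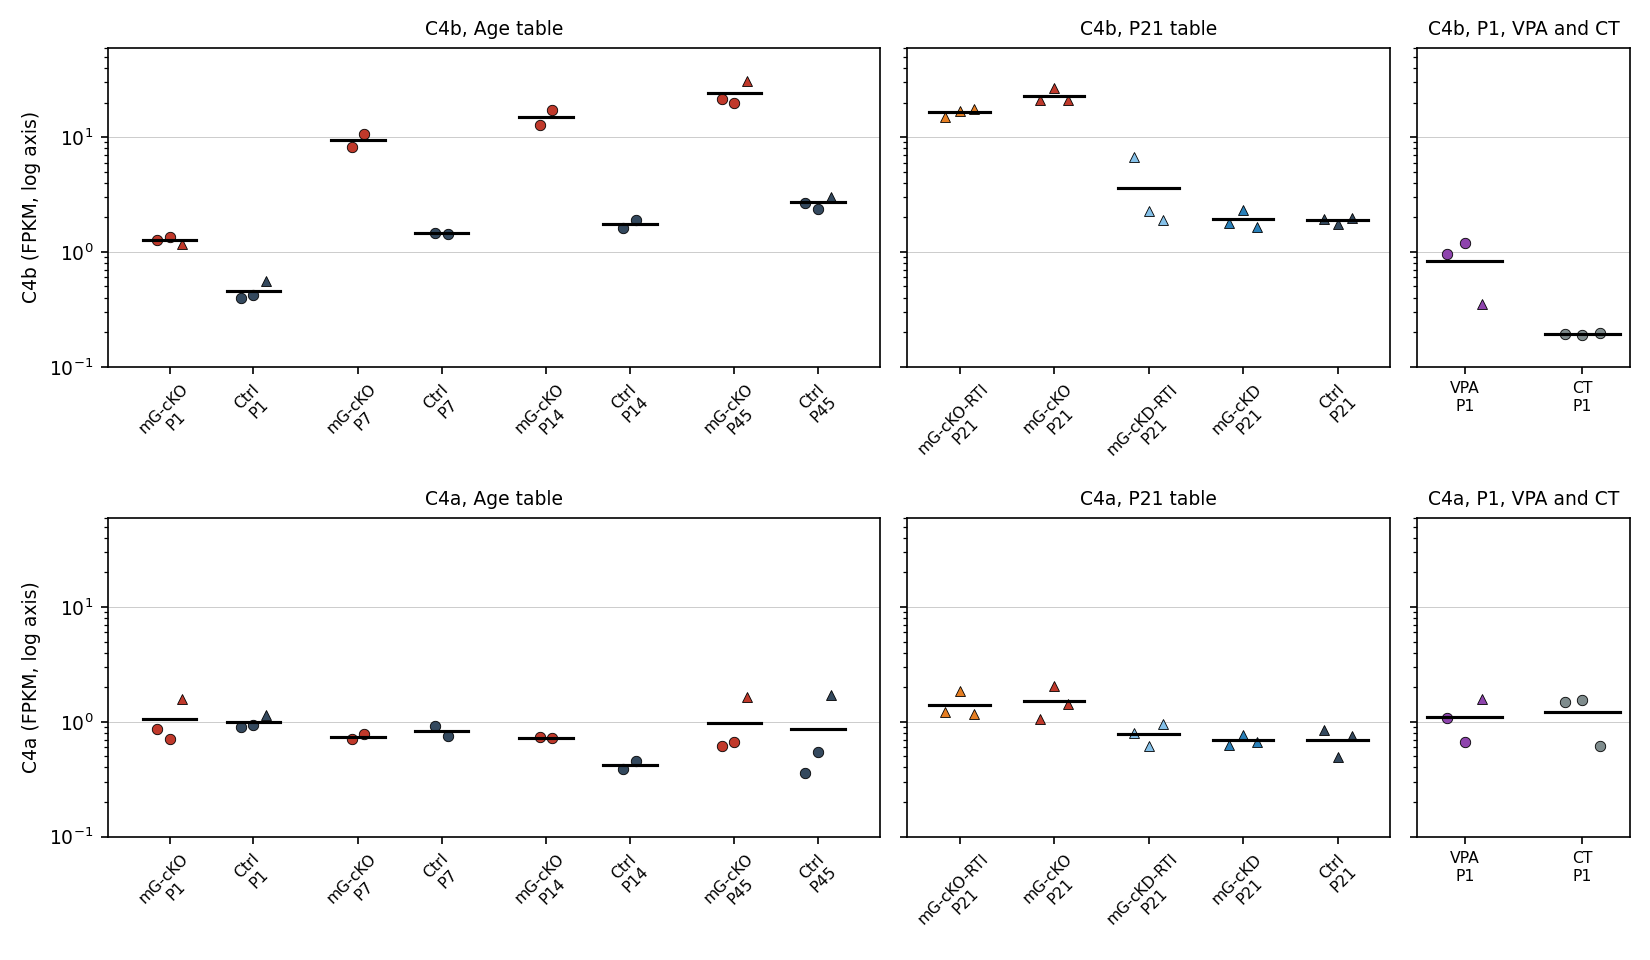
FPKM of C4b (upper row) and C4a (lower row) in each library on a log axis, by group, in the age table, the P21 table and the P1 table of VPA and CT. Circles are libraries with whole read steps, triangles the others, and black lines group means; C4b reaches 30.7 FPKM in mG-cKO at P45, while C4a stays between 0.356 and 2.05 FPKM in all cortex libraries.

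On the scale of log2(FPKM + 1), with limma and Benjamini-Hochberg adjustment over all 19733 genes tested in the age table, the mG-cKO minus Ctrl difference of C4b was 2.07 ± 0.19 (SE) at P7 (adjusted p = 9.5e-05). It was 2.52 ± 0.19 at P14 (adjusted p = 1.4e-05) and 2.74 ± 0.15 at P45 (adjusted p = 4.5e-07). With only the groups compared in the fit, the calls ended at P7 (adjusted p = 0.0918) and P45 (0.0527). At P1 it was 0.64 ± 0.15 and did not pass (adjusted p = 0.465), although FPKM was 2.76-fold higher. The pseudocount of 1 is larger than the Ctrl level at that age: with 0.1 in its place the difference was 1.30 (adjusted p = 0.00683), and with the replicate number as a block 0.64 had an adjusted p of 0.0242. The mG-cKO effect was larger at P45 than at P1 by 2.10 ± 0.22 (adjusted p = 4.9e-04). The steps between neighbouring ages, 1.44 ± 0.24 for P7 minus P1 (adjusted p = 0.277), 0.44 ± 0.27 for P14 minus P7 (adjusted p = 1) and 0.22 ± 0.24 for P45 minus P14 (adjusted p = 1), did not pass. Both kinds of library held a positive C4b difference: 0.71 (whole-read) and 0.48 (replicate 3) at P1, and 2.62 (whole-read) and 2.97 (replicate 3) at P45.

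At P21 the same gene was set out by genotype and by RTI. C4b stood at 14.8, 17 and 17.5 FPKM in mG-cKO-RTI and 21, 26.8 and 20.8 FPKM in mG-cKO. It stood at 6.75, 2.25 and 1.90 FPKM in mG-cKD-RTI, 1.79, 2.33 and 1.66 FPKM in mG-cKD and 1.95, 1.75 and 1.96 FPKM in Ctrl. Both mG-cKO groups lay above all 9 other libraries, while mG-cKD overlapped Ctrl and mG-cKD-RTI overlapped mG-cKD. The mG-cKO minus Ctrl difference was 3.04 ± 0.27 (limma, adjusted p = 1.8e-05 over 16420 genes), and mG-cKO minus mG-cKD was 3.03 ± 0.27 (adjusted p = 2.6e-05). The mG-cKD minus Ctrl difference was 0.01 ± 0.27 (adjusted p = 1), with an interval of -0.56 to 0.59 that leaves room for a change of that size in either direction.

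RTI went with a lower mean of C4b in mG-cKO cortex, 16.4 ± 1.42 FPKM in mG-cKO-RTI against 22.9 ± 3.37 FPKM in mG-cKO (SD, n = 3 each), and the groups did not overlap. The log2 difference of -0.45 ± 0.27 did not pass (limma, adjusted p = 0.962, interval -1.03 to 0.13). C4b in mG-cKO-RTI was 2.59 ± 0.27 above Ctrl (adjusted p = 1.3e-04) and 2.06 ± 0.27 above mG-cKD-RTI (adjusted p = 0.0011, and 0.0614 with only these groups in the fit). In mG-cKD cortex the RTI difference was 0.52 ± 0.27 (adjusted p = 1), and it rested on replicate 1 of mG-cKD-RTI: without that library it was 0.08. That library, at 6.75 FPKM of C4b, had Stk19-ps1 and Skiv2l-ps1 at 0 and Tnxa at 0.0167 FPKM, levels like those of the other mG-cKD-RTI libraries. Its summed astrocyte markers were 855 FPKM, against 683 and 691 FPKM in the other mG-cKD-RTI libraries, and its Gfap was 48.1 FPKM, against 43.8 and 46.1 FPKM. Its summed oligodendrocyte markers were 1529 FPKM, against 2745 and 2964 FPKM, and its microglial sum was 102 FPKM, against 115 FPKM in both others. Their part in its C4b level was not tested. Beside these values, summed oligodendrocyte markers were 378 to 701 FPKM in mG-cKO-RTI and 269 to 446 FPKM in mG-cKO, and summed choroid plexus markers were 9.77 to 526 FPKM in mG-cKO-RTI and 5.0 to 80.5 FPKM in mG-cKO, with overlapping groups. Microglial sums did not overlap, with 144, 106 and 117 FPKM in mG-cKO-RTI and 96.4, 101 and 99.9 FPKM in mG-cKO. The part of these markers was not tested. The RTI effect in mG-cKO minus that in mG-cKD was -0.97 ± 0.38 (adjusted p = 1), and -0.52 without that library. The mG-cKD-RTI minus Ctrl difference was 0.54 ± 0.27 (adjusted p = 0.927).

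C4a, the other C4 copy, passed the test at none of the 4 ages. Its log2 differences between mG-cKO and Ctrl were 0.02 ± 0.25 at P1, -0.08 ± 0.31 at P7, 0.28 ± 0.31 at P14 and 0.11 ± 0.25 at P45 (limma, adjusted p = 1 at each age). At P1 C4a stood at 0.866, 0.706 and 1.58 FPKM in mG-cKO and 0.894, 0.946 and 1.14 FPKM in Ctrl. At P45 it stood at 0.613, 0.664 and 1.65 FPKM in mG-cKO and 0.356, 0.544 and 1.72 FPKM in Ctrl. At P14 the groups did not overlap, with 0.734 and 0.721 FPKM in mG-cKO and 0.387 and 0.458 FPKM in Ctrl. In the P21 table C4a was 1.05, 2.05 and 1.42 FPKM in mG-cKO and 0.847, 0.496 and 0.753 FPKM in Ctrl, again without overlap, a log2 difference of 0.55 ± 0.16 (limma, adjusted p = 0.119). In FPKM the group means were 1.72-fold apart at P14 and 2.15-fold at P21, and the pseudocount of 1 shrinks differences at such levels. Under the alternatives the P21 difference ran from 0.40 to 0.99 and did not pass (limma, lowest adjusted p = 0.0718). In mG-cKO-RTI C4a was 1.21, 1.85 and 1.18 FPKM, a difference from mG-cKO of -0.05 ± 0.16 (adjusted p = 0.984).

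In the whole-read libraries the C4b values stood for 281 reads in mG-cKO and 93 in Ctrl at P1, and 4572 in mG-cKO and 507 in Ctrl at P45, summed over 2 libraries each. The C4a values stood for 184 reads in mG-cKO and 228 in Ctrl at P1, and 154 in mG-cKO and 98 in Ctrl at P45. In these libraries C4a had more reads than C4b in Ctrl at P1 and fewer in mG-cKO at the same age. In replicate 3 of mG-cKO at P1, C4b lay below C4a, with a log2 ratio of -0.40. The log2 ratio of C4b to C4a, with 0.1 FPKM added to each, exceeded that of Ctrl in mG-cKO by 1.29 at P1, 2.75 at P7, 2.34 at P14 and 2.81 at P45. Their mean of 2.30 had p = 0.000139 in an exact two-sided permutation test within ages, the smallest that the 14400 arrangements allow, and 0.000833 after adjustment over the 6 ratio tests. At P21 the ratio was higher by 2.54 in mG-cKO than in Ctrl (exact permutation p = 0.1, the smallest that 3 against 3 libraries allow, adjusted p = 0.3). It differed by 0.01 for mG-cKD against Ctrl (exact permutation p = 1), by -0.40 for mG-cKO-RTI against mG-cKO (exact permutation p = 0.2) and by 0.51 for mG-cKD-RTI against mG-cKD (exact permutation p = 0.6).

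The pseudogenes between C4b and C4a were at or near 0 in Ctrl cortex and rose in mG-cKO cortex. Stk19-ps1, the copy next to the C4b start, stood at 0.918, 0.930 and 0.477 FPKM in mG-cKO at P1, against 0, 0 and 0.254 FPKM in Ctrl. At P7 it was 1.45 and 4.44 FPKM in mG-cKO, against 0.0677 and 0.0950 FPKM in Ctrl, each of which is 1 read. At P14 it was 6.67 and 7.54 FPKM in mG-cKO and 0 in both Ctrl libraries, and at P45 14.2, 11.2 and 9.71 FPKM in mG-cKO and 0 in all 3 Ctrl libraries. No Ctrl library reached the lowest mG-cKO library of its age. In the whole-read libraries, with 3 reads per library as the floor for a count of 0, Stk19-ps1 was at least 3.17-fold higher in mG-cKO at P1, at least 30.5-fold at P14 and at least 38.4-fold at P45.

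Skiv2l-ps1 was at 0 in all 10 Ctrl libraries of the age table. In mG-cKO it stood at 0.641, 0.406 and 0 FPKM at P1, 1.98 and 1.97 FPKM at P7, 4.88 and 5.74 FPKM at P14, and 24.6, 23.7 and 5.52 FPKM at P45. The P45 libraries split by kind, with the whole-read libraries the higher ones. Against the same floor, Skiv2l-ps1 in the whole-read libraries was at least 2.28-fold higher in mG-cKO at P1, 10.3-fold at P7, 29.0-fold at P14 and 93.0-fold at P45. Tnxa, on the opposite strand, stood at 0.195, 0.144 and 0.0488 FPKM in mG-cKO at P1, 0.438 and 0.822 FPKM at P7, 1.05 and 1.92 FPKM at P14, and 5.24, 5.52 and 0.774 FPKM at P45. Its highest Ctrl value at these ages was 0.0192 FPKM, which is 1 read. Replicate 3 was again the lowest mG-cKO library at P45, and whether the counting used the strand is not stated, so where Tnxa overlaps Cyp21a1 on the other strand their reads cannot be told apart.

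**Figure D2:**
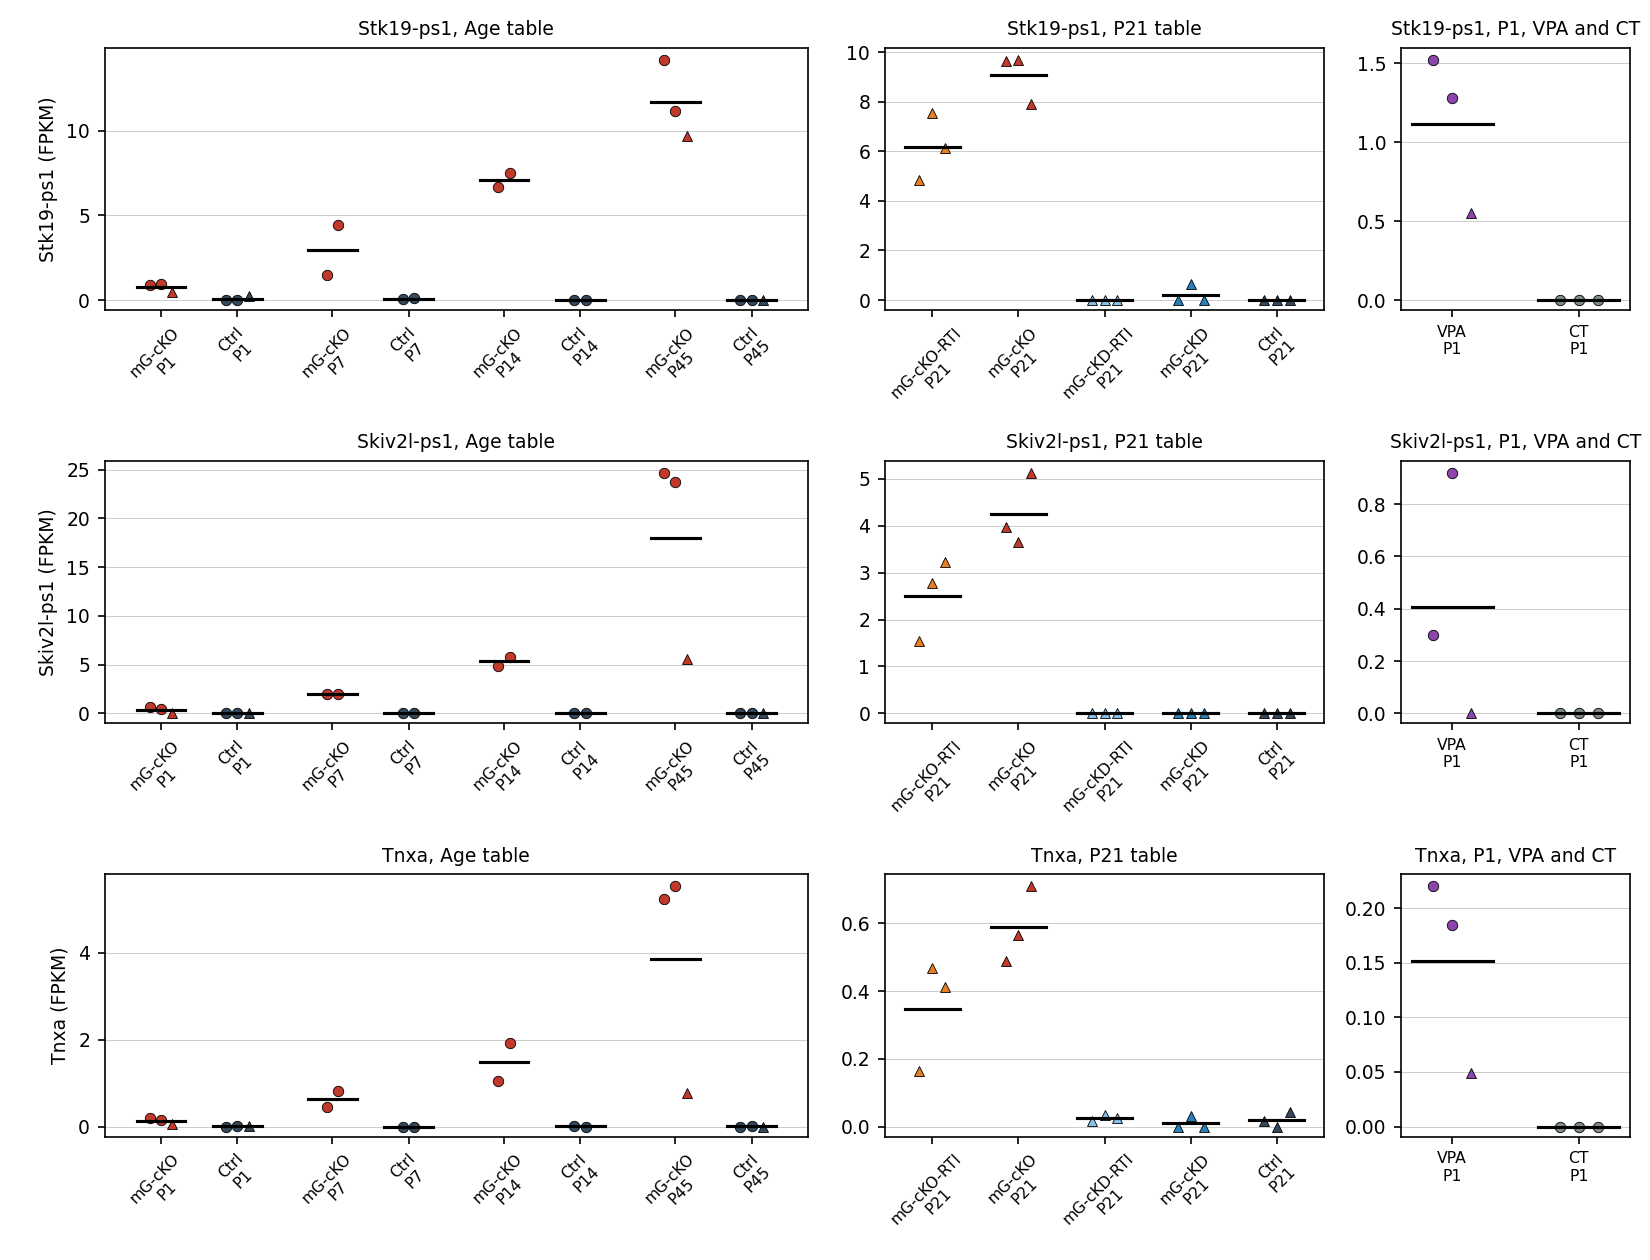
FPKM of Stk19-ps1, Skiv2l-ps1 and Tnxa in each library by group, on linear axes that differ between panels. Circles are libraries with whole read steps, triangles the others, and black lines group means; all Ctrl libraries lie at or near 0, and replicate 3 of mG-cKO at P45 lies at 5.52 FPKM of Skiv2l-ps1 beside 24.6 and 23.7 FPKM.

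In the P21 table Stk19-ps1 stood at 4.84, 7.53 and 6.15 FPKM in mG-cKO-RTI and 9.64, 9.70 and 7.90 FPKM in mG-cKO. It was listed at 0 in all mG-cKD-RTI and Ctrl libraries and in 2 of 3 mG-cKD libraries, the third being at 0.628 FPKM. Skiv2l-ps1 stood at 1.54, 2.77 and 3.22 FPKM in mG-cKO-RTI and 3.98, 3.66 and 5.13 FPKM in mG-cKO, and was listed at 0 in the 9 other libraries. Tnxa stood at 0.164, 0.469 and 0.413 FPKM in mG-cKO-RTI and 0.490, 0.567 and 0.710 FPKM in mG-cKO, and at 0.0433 FPKM or less in the 9 others. For all 3 pseudogenes every mG-cKO-RTI library lay below every mG-cKO library, and both groups lay above the rest. How many of all genes separate in this way was not counted, so the count of 3 is not a result about RTI. In limma the RTI differences in mG-cKO were -0.50 ± 0.18 for Stk19-ps1 and -0.60 ± 0.16 for Skiv2l-ps1, and neither passed (adjusted p = 0.962 for both). Tnxa and Tnxb were below the filter at P21 and were not tested.

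The fitted log2 differences of these genes depend on the pseudocount, since Ctrl is at or near 0. Where tested, these genes passed the filter on low values through their mG-cKO libraries, and so had to differ between the groups. Their calls below therefore add nothing to the values given above. For Stk19-ps1, mG-cKO minus Ctrl was 0.71 ± 0.23 at P1 (adjusted p = 1), 1.76 ± 0.28 at P7 (adjusted p = 0.0173), 3.02 ± 0.28 at P14 (adjusted p = 9.3e-05), 3.65 ± 0.23 at P45 (adjusted p = 1.5e-06) and 3.33 ± 0.18 at P21 (adjusted p = 1.1e-07). For Skiv2l-ps1 it was 1.57 ± 0.46 at P7 (adjusted p = 0.868), 2.65 ± 0.46 at P14 (adjusted p = 0.0202), 4.0 ± 0.38 at P45 (adjusted p = 3.9e-05) and 2.38 ± 0.16 at P21 (adjusted p = 1.4e-06). For Tnxa it was 1.28 ± 0.45 at P14 (adjusted p = 1) and 2.05 ± 0.37 at P45 (adjusted p = 0.0097). The mG-cKO effect was larger at P45 than at P1 for Stk19-ps1, by 2.94 ± 0.32 (adjusted p = 7.6e-04), and for Skiv2l-ps1, by 3.60 ± 0.53 (adjusted p = 0.0066). The calls of Stk19-ps1 at P7 ended without Ctrl 1 (adjusted p = 0.252), Ctrl 2 (0.211) or mG-cKO 2 (0.153), and that of Skiv2l-ps1 at P14 without any of its 4 libraries (0.168 to 0.293). The Tnxa call at P45 ended without mG-cKO 1 (adjusted p = 0.0681) or mG-cKO 2 (0.0662). With only the groups compared in the fit, the P45 calls ended for Stk19-ps1 (adjusted p = 0.0504), Skiv2l-ps1 (0.30) and Tnxa (1.0), as did the P7 call of Stk19-ps1 (0.328) and that of Skiv2l-ps1 for the effect at P45 minus P1 (0.149). Within the whole-read libraries the P45 difference was 3.77 for Stk19-ps1, 4.65 for Skiv2l-ps1 and 2.66 for Tnxa, and within the replicate 3 pair 3.42, 2.71 and 0.83.

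The partner genes of these pseudogenes passed the test in no comparison of mG-cKO with Ctrl. Stk19 stood at 10.5, 11.7 and 21.5 FPKM in mG-cKO and 11.8, 10.7 and 23.3 FPKM in Ctrl at P1, and at 7.18, 7.01 and 22.6 FPKM in mG-cKO and 6.59, 8.22 and 21.1 FPKM in Ctrl at P45. Skiv2l stood at 13.7, 14.2 and 20.7 FPKM in mG-cKO and 13.1, 13.9 and 20.7 FPKM in Ctrl at P45. Its groups did not overlap at P7 or P14, where mG-cKO was the lower, but the log2 differences were -0.13 ± 0.21 and -0.05 ± 0.21 (limma, adjusted p = 1 for both). Tnxb stood at 0.848, 0.626 and 0.635 FPKM in mG-cKO and 0.826, 0.680 and 0.478 FPKM in Ctrl at P45. The standard error of Stk19 was 0.45 at P45, where its level differed by kind of library, and within the kinds its log2 difference was -0.05 (whole-read) and 0.09 (replicate 3). Across P1, P7, P14 and P45 the log2 differences of Stk19, Skiv2l and Tnxb lay between -0.13 and 0.10. At P21 those of Stk19 and Skiv2l were -0.08 ± 0.13 and 0.04 ± 0.12 (adjusted p = 0.938 and 0.961), while Tnxb, at 0.263, 0.301 and 0.362 FPKM in mG-cKO and 0.155, 0.329 and 0.255 FPKM in Ctrl, was too low to be tested.

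Both 21-hydroxylase copies, which are no members of the 8, were low throughout. Cyp21a2-ps, just downstream of C4b, stood at 0.458, 0.545 and 0.601 FPKM in mG-cKO and 0.0820, 0 and 0 FPKM in Ctrl at P45, and at 0.209, 0.240 and 0.763 FPKM in mG-cKO and 0, 0 and 0.0230 FPKM in Ctrl at P21. Cyp21a1, next to C4a, was at most 0.0926 FPKM in the mG-cKO libraries of the age table. At both P45 and P21 the groups were thus apart, with mG-cKO the higher, for Cyp21a2-ps, C4b, Stk19-ps1, Skiv2l-ps1 and Tnxa. These are neighbours among the named genes only, and 22.7 kb without a member lie between Stk19-ps1 and Skiv2l-ps1. The share of all genes with groups apart at both ages was not counted, so this run is not a result about the segment. Cyp21a2-ps was below the filter, was not tested and was named after its values were seen.

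**Figure D3:**
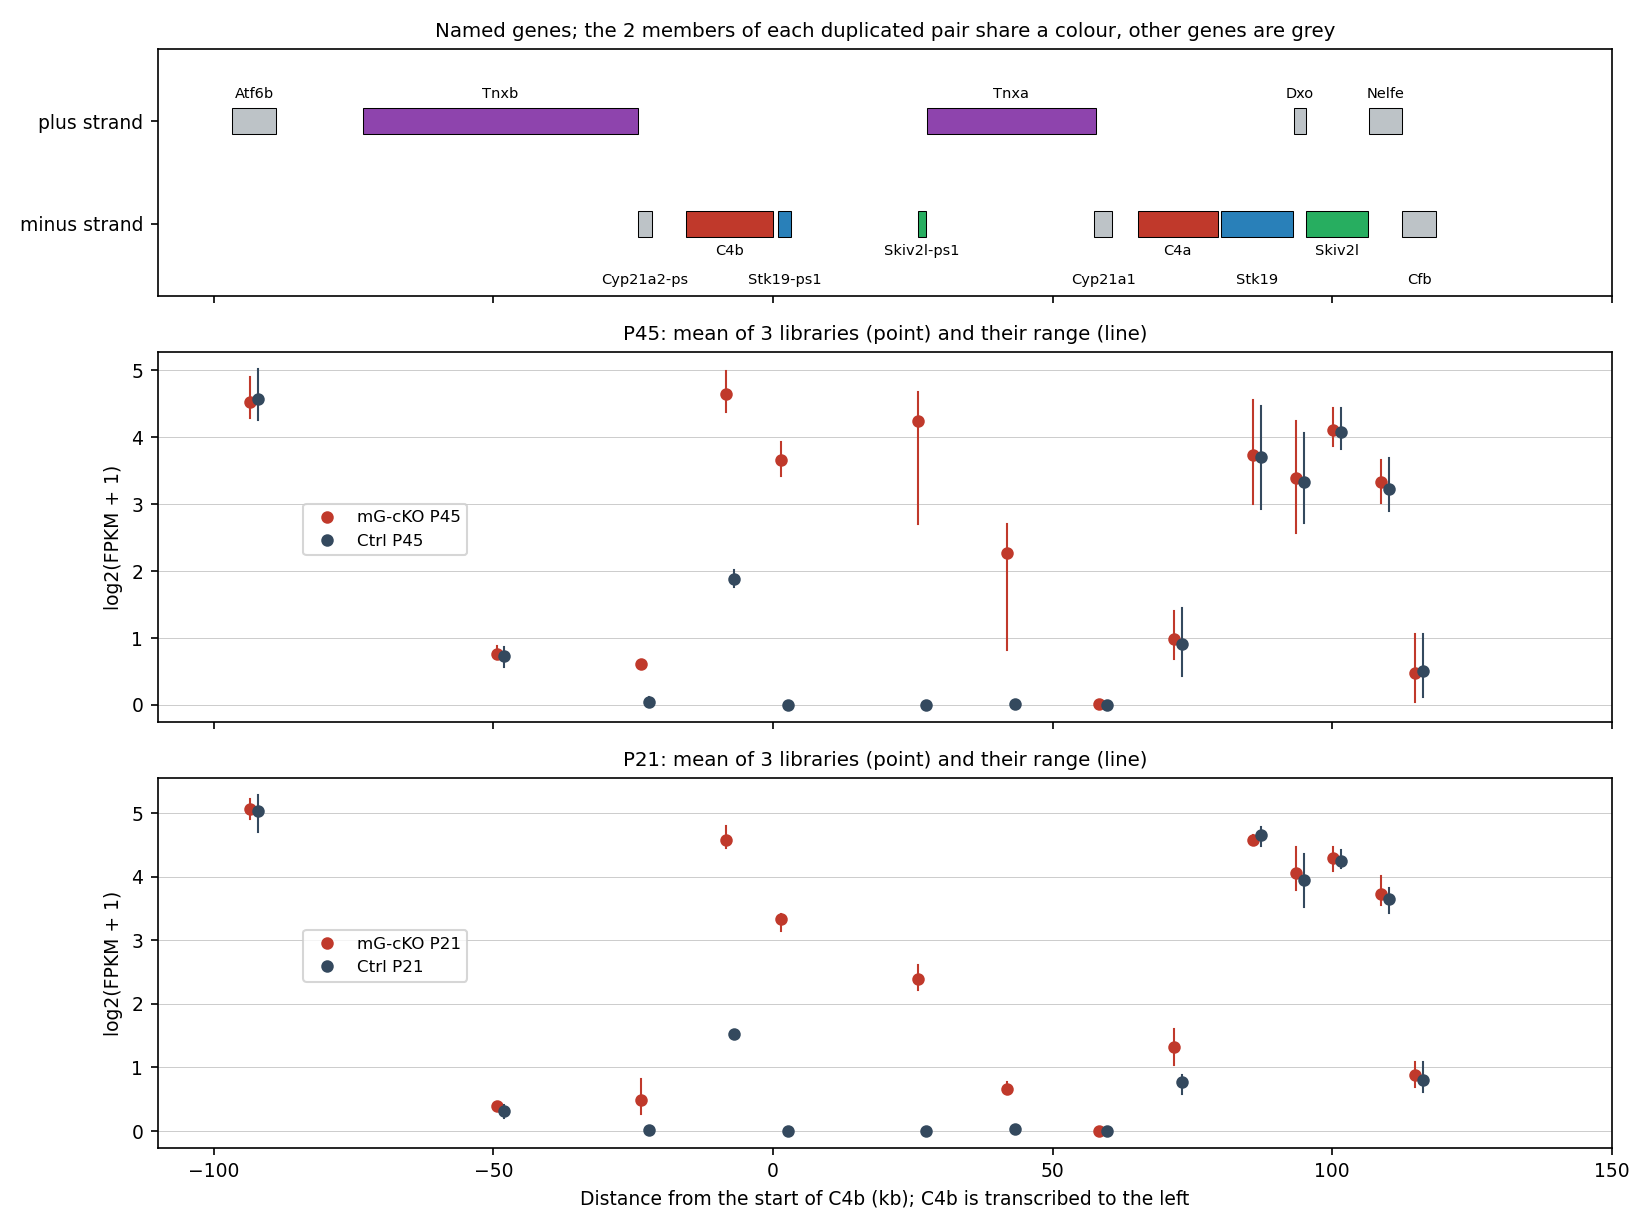
Named genes around C4b by strand and distance from the C4b start in kb (top), and their log2(FPKM + 1) in mG-cKO and Ctrl cortex at P45 and P21 (below), with points for the mean of 3 libraries and lines for their range. The groups are apart from Cyp21a2-ps to Tnxa, and overlap at P45 from Cyp21a1 rightward and at Tnxb and Atf6b. At P21 C4a is apart as well, with 1.05 to 2.05 FPKM in mG-cKO and 0.496 to 0.847 FPKM in Ctrl.

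Counts of the members are read against the share of all genes past an adjusted p of 0.05. For mG-cKO against Ctrl, 0 of 8 members were called in limma at P1, where 0.142% of all genes were called. At an unadjusted p under 0.05 there were 2 members and 343 genes. At P7 2 of 8 were called (0.162% of all genes), at P14 3 of 8 (0.345%), at P45 4 of 8 (1.16%), and for the mean of the 4 ages 4 of 8 (1.3%). In that mean the Tnxa call (adjusted p = 0.0189) ended without any of 6 libraries, Ctrl 1, Ctrl 2 or mG-cKO 2 at P7 or at P14 (adjusted p = 0.0572 to 0.0804). At P21 3 of 6 tested members were called for mG-cKO against Ctrl (2.19% of all genes), 3 of 6 for mG-cKO against mG-cKD (1.53%), 3 of 6 for mG-cKO-RTI against Ctrl (2.3%) and 3 of 6 for mG-cKO-RTI against mG-cKD-RTI (0.95%). All of these calls were increases, and at P7, P14, P45 and P21 the called members were C4b and pseudogene copies. The 3 pseudogenes passed the filter on low values through their mG-cKO libraries, and so had to differ between the groups, so the counts do not add to the values given above.

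Same-numbered libraries deviated alike at P1 and P45, but replicate 3 there is of the other kind of library in both genotypes. Pairing and kind of library therefore cannot be told apart in a replicate block. With the replicate number as a block 181 genes were called at P1 in place of 28, with C4b among them, and 2740 at P45 in place of 228.

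The comparisons of effects gave fewer calls. For the mG-cKO effect at P45 minus P1, 3 of 8 members were called (0.36% of all genes, 71 genes), and with the block Tnxa was called as well, among 1038 genes (1.89, adjusted p = 0.0406). For P7 minus P1, 0 of 8 were called in limma (0.00507%), with 2 members and 121 genes at an unadjusted p under 0.05. For P14 minus P7, 0 of 8 were called (0.0101%), with 1 member and 191 genes unadjusted, and for P45 minus P14, 0 of 8 (0.0101%), with 1 member and 263 genes. For mG-cKD against Ctrl, 0 of 6 were called in limma (0% of all genes), with 0 members and 231 genes unadjusted, and for mG-cKD-RTI against mG-cKD 0 of 6 (0%), with 0 members and 353 genes. For mG-cKO-RTI against mG-cKO, 0 of 6 were called (0.00609%), and Stk19-ps1 and Skiv2l-ps1 were the 2 members among 649 genes with an unadjusted p under 0.05. For mG-cKD-RTI against Ctrl, 0 of 6 were called (0%), with 0 members and 625 genes unadjusted, and for the difference of the RTI effects 0 of 6 (0%), with C4b and Skiv2l-ps1 among 245 genes.

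**Figure D4:**
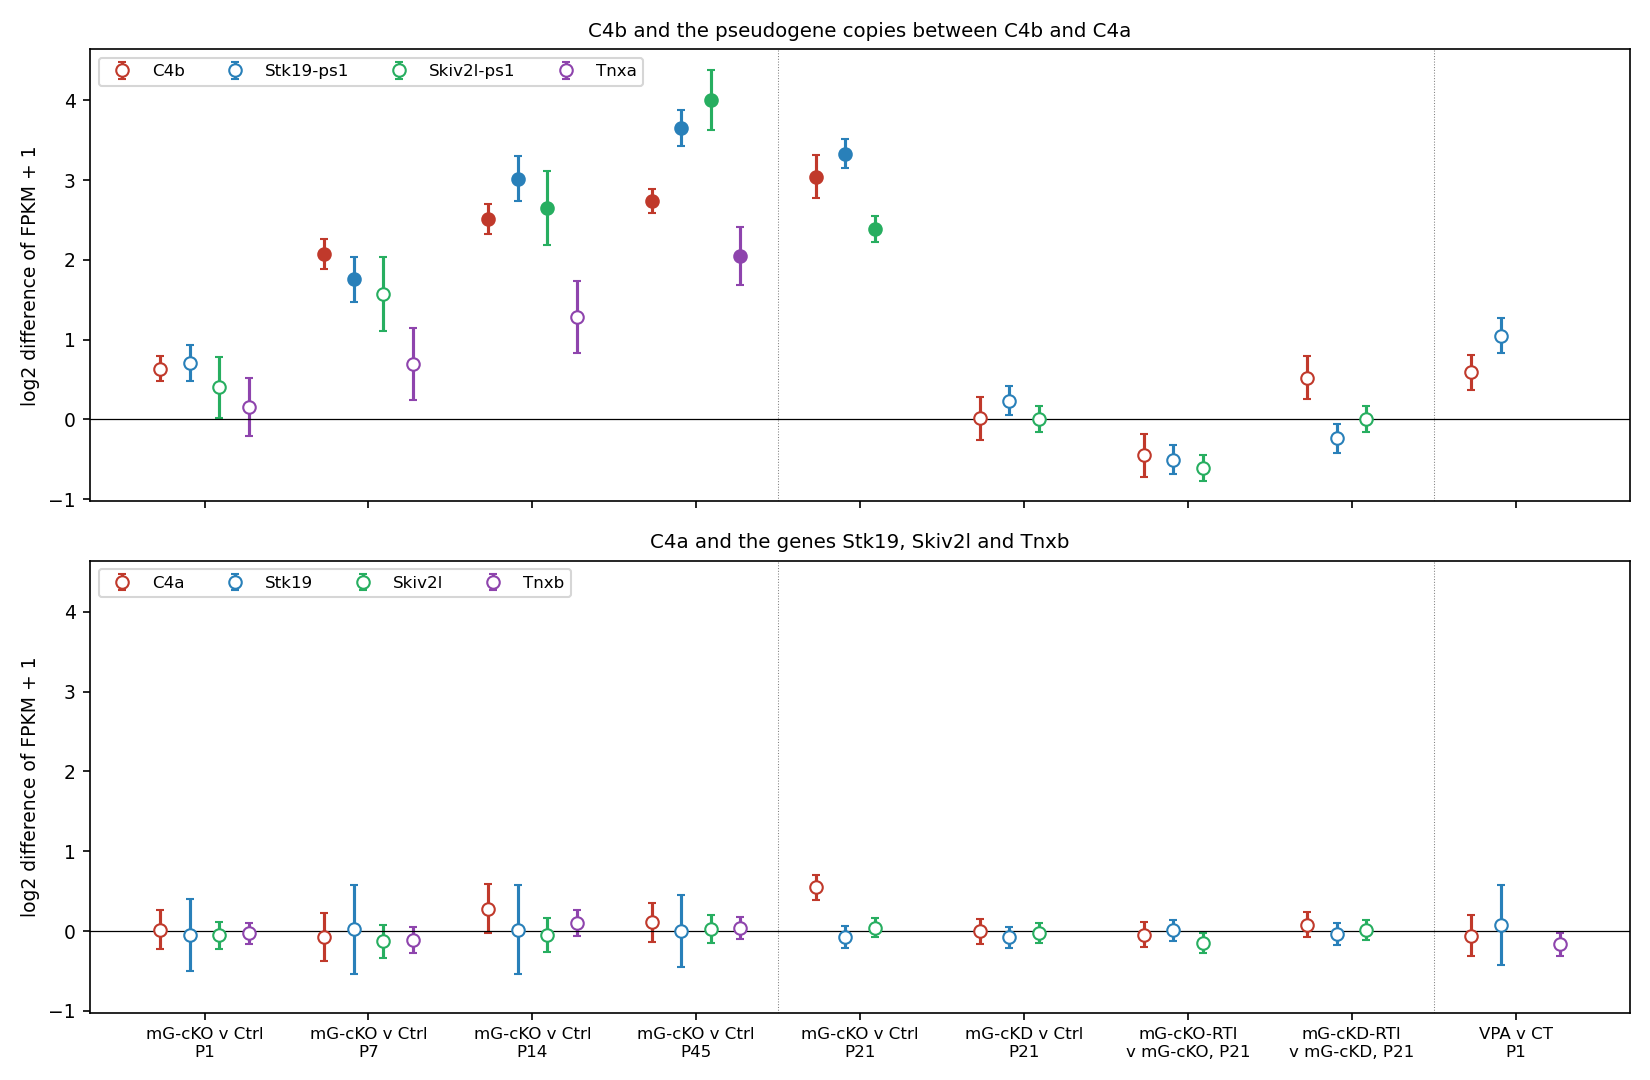
Log2 differences of FPKM + 1 with standard errors from limma, for C4b and the 3 pseudogenes (upper panel) and for C4a, Stk19, Skiv2l and Tnxb (lower panel), in 9 comparisons. Filled points have an adjusted p under 0.05 and open points do not, a missing point is a gene below the filter or not in the table, and dotted lines part the tables; the upper panel reaches 4.0 at P45, and all points of the lower panel are open.

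With age, Ctrl cortex held more C4b. Its Ctrl level was higher at P7 than at P1 by 0.75 ± 0.17 on the log2 scale (limma, adjusted p = 0.0184), a call that ended without Ctrl 1 at P1 (adjusted p = 0.0605), Ctrl 1 at P7 (0.165) or Ctrl 2 at P7 (0.129), or with only these groups in the fit (0.102). It was higher at P14 than at P7 by 0.17 ± 0.19 (adjusted p = 0.88), higher at P45 than at P14 by 0.42 ± 0.17 (adjusted p = 0.165), and higher at P45 than at P1 by 1.34 ± 0.15 (adjusted p = 9.2e-06). All genes together shifted by a median of 0.16 between P14 and P45, and with a common median the C4b difference there was 0.19. Skiv2l fell by 0.50 ± 0.17 between P1 and P45 in Ctrl (limma, adjusted p = 0.0366), to 13.1, 13.9 and 20.7 FPKM at P45, against 21.2, 20.9 and 25.5 FPKM at P1. Tnxb stood at 1.12 and 0.837 FPKM in Ctrl at P7, against 0.416, 0.348 and 0.348 FPKM at P1, a difference of 0.53 ± 0.15 (adjusted p = 0.0511). Of the 8 members 1 was called in limma for P7 against P1 (6.24% of all genes), 0 for P14 against P7 (8.57%, with 1 member and 3602 genes unadjusted), 0 for P45 against P14 (8.18%, with 1 member and 5264 genes unadjusted) and 2 for P45 against P1 (36.6%), where the members' share did not exceed that of all genes.

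In the separate P1 table, C4b stood at 0.955, 1.20 and 0.351 FPKM in VPA cortex, against 0.195, 0.190 and 0.198 FPKM in CT cortex, and the groups did not overlap. Stk19-ps1 stood at 1.52, 1.28 and 0.551 FPKM in VPA, Skiv2l-ps1 at 0.299, 0.919 and 0 FPKM and Tnxa at 0.220, 0.185 and 0.0488 FPKM, and all 3 were at 0 in all CT libraries. The copies seen in mG-cKO cortex were thus also seen in VPA cortex, with VPA 3 the lowest for each. Summed marker levels were also higher in VPA without overlap, at 11 to 15.9 FPKM in VPA and 9.63 to 10.5 FPKM in CT for the 3 astrocyte markers of this table, 23.0 to 29.9 FPKM in VPA and 19.2 to 22.0 FPKM in CT for microglia, and 29.0 to 33.6 FPKM in VPA and 19.8 to 24.8 FPKM in CT for oligodendrocytes, and their part was not tested. In the whole-read libraries the VPA values stood for 24 reads of Stk19-ps1, 14 of Skiv2l-ps1 and 20 of Tnxa, and were at least 3.66-fold, 2.03-fold and 3.05-fold higher than the floor of 3 reads per CT library. Of the 14 reads of Skiv2l-ps1, VPA 1 held 3, the floor itself, and VPA 2 held 11, so its fold rests on VPA 2. The log2 difference of C4b was 0.59 ± 0.22 and did not pass (limma, adjusted p = 0.188 over 11264 genes), nor did that of Stk19-ps1, 1.05 ± 0.22 (adjusted p = 0.108). Without VPA 3, which has no whole read steps, C4b differed by 0.80 (adjusted p = 0.0465) and Stk19-ps1 by 1.26 (adjusted p = 0.0206). All tested genes had a median difference of 0.12 in this comparison, and with a common median C4b differed by 0.56 and Stk19-ps1 by 1.02. Both passed the filter only through their VPA values. Of the 5 tested members 0 were called in limma (0% of all genes), with 2 members and 2644 genes at an unadjusted p under 0.05.

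C4a stood at 1.09, 0.673 and 1.57 FPKM in VPA and 1.48, 1.54 and 0.620 FPKM in CT, with overlapping groups, and the C4b to C4a log2 ratio was higher in VPA by 1.62 (exact permutation p = 0.2, adjusted p = 0.3 over 6 tests). Stk19 was 9.99, 9.60 and 34.0 FPKM in VPA and 16.3, 16.3 and 10.7 FPKM in CT. Tnxb was 0.445, 0.482 and 0.431 FPKM in VPA and 0.635, 0.722 and 0.542 FPKM in CT, without overlap, a difference of -0.17 ± 0.15 (limma, adjusted p = 0.484).

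Neighbouring genes and other complement genes were counted beside C4b. The share of all genes called was 0.142% at P1 to 2.19% at P21, so lists of this size would hold few calls at that share, and their counts are not a result about them. Of 23 named neighbours outside the duplicated members, 19 were tested and 0 passed in limma in mG-cKO against Ctrl at P1, P7, P14, P45 or P21, with median log2 differences of -0.03 to 0.05, beside medians over all genes of -0.01 to 0.07. For VPA against CT 12 neighbours were tested and 0 passed, with a median of 0.33, beside 0.12 over all genes. Of 34 genes of the classical complement pathway, its receptors and regulators, 20 were tested in the age table and 22 at P21, and 0 passed in any of these 5 comparisons, with medians of -0.04 to 0.13. C2 and Cfb stand on both lists.

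Cell type markers moved beside C4b in some comparisons. Summed over 8 markers, oligodendrocyte genes stood at 269 to 446 FPKM in mG-cKO and 2699 to 4201 FPKM in Ctrl at P21, where 8 of 8 fell, and at 111 to 434 FPKM in mG-cKO and 536 to 1959 FPKM in Ctrl at P45, where 7 of 8 fell. At P14, where 4 of 8 fell, they stood at 158 to 180 FPKM in mG-cKO and 647 to 725 FPKM in Ctrl. None of 8 microglial markers passed in limma at P1, P7, P14, P45 or P21, and their sums were 96.4 to 101 FPKM in mG-cKO and 105 to 115 FPKM in Ctrl at P21. At P7 microglial sums were 54.8 to 63.0 FPKM in mG-cKO and 43.3 to 43.4 FPKM in Ctrl, and neither age had an overlap. Of 8 astrocyte markers Gfap rose at P21, with 122 ± 23.4 FPKM in mG-cKO and 50.7 ± 6.62 FPKM in Ctrl (SD, n = 3 each; adjusted p = 0.0032), and Aqp4 at P45, by 0.56 ± 0.11 (adjusted p = 0.0157). Astrocyte sums overlapped at P21, with 748 to 806 FPKM in mG-cKO and 690 to 752 FPKM in Ctrl. They also overlapped at P1 (104 to 161 FPKM in mG-cKO, 114 to 160 FPKM in Ctrl) and P14 (565 to 612 FPKM in mG-cKO, 579 to 597 FPKM in Ctrl). The same held at P45 (656 to 818 FPKM in mG-cKO, 640 to 727 FPKM in Ctrl). Only at P7 were they apart, with 268 to 322 FPKM in mG-cKO and 245 to 249 FPKM in Ctrl. At P7 Gfap stood at 59.0 and 78.1 FPKM in mG-cKO and 37.7 and 38.7 FPKM in Ctrl, and it did not pass. Also without passing, Gfap at P14 was at least 70.8 FPKM in mG-cKO and at most 45.3 FPKM in Ctrl. Aqp4 was at least 45.1 FPKM in mG-cKO and at most 35.9 FPKM in Ctrl at P14. At P21 it was at least 20.6 FPKM in mG-cKO and at most 19.1 FPKM in Ctrl. At P1 Aqp4 was the lower in mG-cKO, at most 6.92 FPKM, against at least 7.19 FPKM in Ctrl. Gfap overlapped at P1 and P45, and Aqp4 at P7. Sums of 5 hepatocyte markers were 3.15 to 77.8 FPKM in mG-cKO and 1.55 to 69.7 FPKM in Ctrl at P21, and of these markers Fgb and Serpina1a were at 0 in all 6 libraries. Sums of choroid plexus markers differed by library, with 5.0 to 80.5 FPKM in mG-cKO and 2.68 to 72.0 FPKM in Ctrl at P21. Ttr stands on both the hepatocyte and the choroid plexus list, so these sums are not separate readings. The part of these markers in the C4b difference was not tested.

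Likeness to C4b was ranked by the lower of 2 Pearson correlations of log2 levels, over the 20 and the 15 libraries. Genes tested in both tables were ranked, without symbols of the form Gm and number or ending in Rik, which left 13390. The most alike of these were Pcdha1 (0.94 and 0.93), Bglap3 (0.92 and 0.93), Stk19-ps1 (0.92 and 0.96), Aspg (0.91 and 0.95) and Pnmal1 (0.90 and 0.93). Skiv2l-ps1 came at rank 9 (0.89 and 0.95). C4a came at rank 3774, with -0.01 over the age table and 0.85 over the P21 table. Stk19 came at rank 5950 and Skiv2l at rank 10883. The points share groups and kinds of library, so these values describe likeness only. Stk19-ps1 and Skiv2l-ps1 also entered the ranking only through libraries in which C4b is high, so their ranks are not a separate result.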

How the data were processed

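The authors deposited FPKM per gene in 4 tables. Build mm10, featureCounts 2.0.4, STAR 2.5.3a and Trim Galore 0.6.5 are listed in the submitters' processing notes. Per the labels, TRIzol was used for RNA and a NEB Next Ultra RNA kit for the libraries. All columns of the 44 libraries were used. The third mG-cKO and Ctrl replicates of P7 and of P14, 4 of 48 labelled samples, were not analysed here. The 3 NPC columns carry no sample number of the labels.

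Members were found by symbol, and coordinates, exon lengths and transcripts came from GENCODE M21. Transcripts were aligned with BLAST+ 2.17.0. Genes averaging 0.5 FPKM or more in a table were fitted as log2(FPKM + 1) with limma 3.58.1 (R 4.3.3, statmod 1.5.0; trend and robust), 1 mean per group, each table alone. P-values were adjusted by Benjamini-Hochberg over all genes tested, with a threshold of 0.05. The script was tested on simulated data. Intervals are 95%. The C4b to C4a ratio was tested by exact permutation with scipy 1.17.1. Floors of 3 reads cover counting error only.

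The genes named are the 8 members, the 5 genes most like C4b in both tables and up to 4 called genes of each list, with no symbols of the form Gm and number or ending in Rik. Members and lists were chosen with earlier results of these data known. A result on a listed gene is not reported here. Cyp21a1, Cyp21a2-ps, Atf6b, C2, Cfb, Fgb, Serpina1a and Ttr are listed genes outside that rule, named after their values were seen. Deviations of same-numbered libraries from their group means correlated at over 0.1 in all 3 pairs at P1 and at P45. The same held in Ctrl between P45 and P1, and at P21 for mG-cKO against Ctrl and against mG-cKD. The main fits and the main ratio test nonetheless left the replicate number out, and it entered as a block in an alternative only. At P1 and P45 replicate 3 is also of the other kind of library, so pairing and kind cannot be told apart there. At P7 and P14, where no replicate 3 was read, the correlations between mG-cKO and Ctrl were 0.014 and 0.070. Alternatives were another pseudocount, other filters, a common median, limma without trend, only the groups compared, only whole-read libraries, a replicate block and leaving out each library.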

Additional observations from a re-analysis of the deposited data

Results flagged for a closer look

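The mG-cKO effect differed between ages for 3 of the 8 genes, by a test of the difference of the effects at P45 and P1 in limma. It was larger at P45 by 2.1 for C4b, by 2.94 for Stk19-ps1 and by 3.60 for Skiv2l-ps1 on the log2(FPKM + 1) scale, with adjusted p of 4.9e-04, 7.6e-04 and 0.0066. Of all genes 0.36% were called in this test. Both pseudogenes passed the filter on low values only through mG-cKO libraries, so their calls add nothing to their values, and that of Skiv2l-ps1 ended with only the groups compared (adjusted p = 0.149). The 4 whole-read P45 libraries behind these effects stood apart in the number of genes at 1 FPKM or more.

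The NPC libraries enter no comparison, and 4 of the 8 genes are in their table. In NPC C1 they stood above the level of 3 reads, with C4b at 0.503 FPKM, C4a at 0.0942 FPKM, Stk19 at 6.13 FPKM and Skiv2l at 15.8 FPKM. In NPC C2 C4b stood at 0.316 FPKM, C4a at 0.230 FPKM, Stk19 at 11.2 FPKM and Skiv2l at 20.6 FPKM. NPC C3, which has no whole read steps, held C4b at 0.02 FPKM and C4a at 0.140 FPKM.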

How the results depend on the processing

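Over 56 values of the members and of the C4b to C4a ratio, 821 alternatives gave 770 of the same direction and side of the threshold, 27 that no longer passed, 16 that newly passed and 8 of the other sign. With only the groups compared in the fit, C4b no longer passed for mG-cKO against Ctrl at P7 (2.07, adjusted p = 0.0918) and P45 (2.74, 0.0527), for P7 against P1 in Ctrl (0.75, 0.102) and for mG-cKO-RTI against mG-cKD-RTI (2.06, 0.0614). Nor did Stk19-ps1 at P7 (1.76, 0.328) and P45 (3.65, 0.0504), Skiv2l-ps1 at P45 (4.0, 0.30) and for P45 minus P1 (3.60, 0.149) and Tnxa at P45 (2.05, 1.0), with fewer samples to estimate the spread. C4b newly passed at P1 with a pseudocount of 0.1 (1.30) and with the replicate block (0.64), and with whole-read libraries only for the mG-cKO effect at P7 minus P1 (1.36), P45 against P14 in Ctrl (0.36) and VPA against CT (0.80). The replicate block changed no other call of C4b, and the ratio over 4 ages had an exact permutation p of 0.00195 under it. Tnxa newly passed with the block for the effect at P45 minus P1 (1.89, adjusted p = 0.0406).

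The mG-cKD minus Ctrl difference of C4b was -0.00848 with a common median and ran from -0.0838 to 0.0799 when libraries were left out. Leaving out libraries gave 0.72 to 0.80 for P7 against P1 in Ctrl, 0.44 to 0.80 for VPA against CT, and, for the ratio, -0.11 to 0.15 for mG-cKD against Ctrl and -0.0284 to 0.97 for mG-cKD-RTI against mG-cKD. The cause of these changes was not tested.

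Counts of genes called moved more. For mG-cKO against Ctrl they were 28 at P1 and 181 with the block, 32 at P7 and 403 with whole-read libraries only, 68 at P14 and 1166 with whole-read libraries only, and 228 at P45, with 0 when only the groups compared were fitted and 2740 with the block. At P21 the count was 360, with 245 to 400 under the alternatives. It was 251 for mG-cKO against mG-cKD (156 to 293), 377 for mG-cKO-RTI against Ctrl (144 to 502), 156 for mG-cKO-RTI against mG-cKD-RTI (64 to 168), and at most 7 for the comparisons of RTI within a genotype and of mG-cKD with Ctrl. For the mean of the 4 ages it was 256 (164 to 2591), and for the effect at P45 minus P1 71 (11 to 1038). In Ctrl it was 1232 for P7 against P1 (0 to 7850), 1691 for P14 against P7 (792 to 8791), 1615 for P45 against P14 (1 to 13227) and 7221 for P45 against P1 (3353 to 15341). For VPA against CT it was 0, and 302 without CT 3. Depth is unknown at P21, so a listed 0 there has no floor.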
